A study of Mus musculus with 14 samples.

Results

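The 36 lysosome genes described here were taken by symbol from a table of 21138 genes, and all 36 were found in it. They comprise 9 proteases, 10 glycosidases, 8 genes of lipid handling, 4 genes of membrane proteins and channels, 4 genes of the proton pump and 1 regulator. Grn, the progranulin gene, was counted with the lipid genes, although its product is not a lipid enzyme. All 36 passed the filter on low counts in every comparison. The genes were followed in 648 single cells of 14 mouse samples, read by Smart-seq2, a plate method that copies full-length messenger RNA from 1 cell at a time. In the 9 tumor-bearing samples, C57BL/6J females 6 to 8 weeks old had been injected with B16F10, a melanoma line of the same strain that carried a fluorescent label. No other treatment was given. Cells were sorted from their blood and lung by tumor and host markers into classes that the labels name CTC (43 cells, 5 samples), DP (450 cells, 9 samples) and WBC (46 cells, 6 samples). The 5 controls have 1 sample each: cultured B16F10 (22 cells), which the labels also give the cell type CTC, and the groups CDP (18 cells), Duplike (24), PltLike (24) and WBC (21), labelled as C57BL/6J with the treatment naive. The labels do not say what CDP, Duplike and PltLike are made of, nor whether each sample is a separate animal, and the p-values may then measure only technical spread between samples.

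Lysosomes are acidic compartments in which proteases, glycosidases and lipases break down material taken up from outside the cell or delivered by autophagy. A proton pump, the V-ATPase, keeps them acidic, and glycosylated membrane proteins such as Lamp1 and Lamp2 line their inner face. Macrophages are rich in lysosomes because they engulf and digest particles, while pigment cells build melanosomes, organelles related to lysosomes. The transcription factor Tfeb is known to bind an extended E-box in the promoters of many lysosome genes.

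Each cell was placed by a score, the mean log2(CPM + 1) of 10 melanocyte genes minus that of 13 leukocyte genes, where CPM is the counts of a gene per 1000000 counts of the cell. None of the 36 lysosome genes enters the score. Cells above 0 are called tumor-high and the others tumor-low. The score is a range and not a cell type, and 20 cells (18 DP, 2 WBC) lay within 1 log2 unit of 0. All 43 CTC were tumor-high, DP held 279 tumor-high and 171 tumor-low cells, and WBC held 2 and 44. The 2 tumor-high WBC, from lung, had 1137 and 3889 CPM of melanocyte genes, and 1 held 385250 CPM of 5 lung epithelial genes. Summed CPM of 5 fibroblast genes reached 165700 in tumor-high and 113360 in tumor-low DP cells of lung, with medians of 0 and 0.143. These cells enter the lung sums, and their part was not tested. The B16F10, CDP, Duplike and PltLike controls were tumor-high in every cell, although the last 3 are labelled naive, and naive WBC were tumor-low in every cell. Macrophage markers moved with the score: the summed CPM of 10 such genes had a median of 32234 in tumor-low DP cells of blood and 36110 in those of lung, against 5.17 and 8.62 in tumor-high DP cells, where single cells reached 16863 and 12344. Each of the 10 genes had counts in all 4 groups. The classes carried their defining genes: Ptprc, the leukocyte marker CD45, had 0.141 ± 0.0936 CPM (SD over samples) in CTC and 751 ± 250 in WBC, and Pmel, a melanosome protein, 5531 ± 2608 and 38.8 ± 54.8 CPM. Depth moved with it too, from a median of 7.08 Mcounts (1 Mcount is 1000000 counts) and 6194 genes in tumor-low DP cells to 19.0 Mcounts and 8554 genes in tumor-high ones. Naive WBC were shallow (1.05 Mcounts, 2226 genes). Sample totals ran from 26.6 to 1728 Mcounts. In lung, 2 sums of tumor-high cells stood apart: replicate 1 held 2 cells and 9.72 Mcounts, and replicate 2 held 3 cells with a median of 3712 genes, 2 of them near the score limit.

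Promoters of 31 members were found in RefSeq (GRCm38.p6) as windows from 250 bases before to 50 after the annotated start. Not matched were Ctsb, Ctsh, Asah1, Atp6v1b2 and Npc1. The E-box CACGTG and the extended E-box TCACGTGA, which contains it, each read the same on both strands. The extended form was found in 6 of the 31 members (19.4%) and in 1.12% of all 27025 genes with a window, and the shorter form in 12 members (38.7%) and in 8.09% of genes. The stretches below are shown because they hold the 8 extended E-boxes found in 6 members (capitals). Also given is the 90-base stretch before the start of 2 members with neither form, Atp6ap1 and Ctsc. Each is written 5′ to 3′ on the strand of the gene.
Ctsd, chr7:142387878-142387967, minus strand: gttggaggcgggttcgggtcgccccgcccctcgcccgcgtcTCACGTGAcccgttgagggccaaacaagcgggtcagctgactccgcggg
Ctsa, chr2:164833695-164833786, plus strand: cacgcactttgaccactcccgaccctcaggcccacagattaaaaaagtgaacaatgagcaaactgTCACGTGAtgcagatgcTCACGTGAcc
Gla, chrX:134601166-134601255, minus strand: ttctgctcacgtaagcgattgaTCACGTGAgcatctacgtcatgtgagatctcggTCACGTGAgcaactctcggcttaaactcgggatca
Mcoln1, chr8:3500432-3500521, plus strand: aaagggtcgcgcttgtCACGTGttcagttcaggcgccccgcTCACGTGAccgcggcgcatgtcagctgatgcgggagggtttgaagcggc
Atp6v0d1, chr8:105566053-105566142, minus strand: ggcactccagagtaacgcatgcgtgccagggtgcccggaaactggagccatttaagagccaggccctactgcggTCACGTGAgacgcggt
Atp6v1a, chr16:44139343-44139432, minus strand: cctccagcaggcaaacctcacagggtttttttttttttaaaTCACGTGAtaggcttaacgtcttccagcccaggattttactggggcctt
Atp6ap1, chrX:74297007-74297096, plus strand: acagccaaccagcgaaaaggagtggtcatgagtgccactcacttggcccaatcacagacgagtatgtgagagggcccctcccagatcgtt
Ctsc, chr7:88277995-88278084, plus strand: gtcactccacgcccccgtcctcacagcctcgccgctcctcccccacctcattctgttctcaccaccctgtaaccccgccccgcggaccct
Ctsa and Gla each carry 2 copies of the extended form, and Mcoln1 carries a shorter E-box beside the extended one. A match describes the letters of the window and is not a measured binding site.

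In single cells, the 36 genes together took a larger part of the counts in tumor-low than in tumor-high DP cells. Their summed level had a median of 30088 CPM in 71 tumor-low DP cells of blood and 34291 CPM in 100 of lung. The 202 and 77 tumor-high DP cells of the same tissues had medians of 10165 and 10425 CPM. CTC lay near the latter, with 10568 CPM in 28 cells of blood and 12592 CPM in 15 cells of lung. Tumor-low WBC held 18798 CPM in 28 cells of blood and 12873 CPM in 16 of lung, with a wide range from 2896 to 54021 CPM. Cultured B16F10 and CDP cells stood above CTC, at 20284 and 20711 CPM, while Duplike and PltLike cells had 10163 and 9478 CPM. Detection was near complete at this depth, with a median of 34 or 35 of the 36 genes counted in DP cells of either kind.

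**Figure D1:**
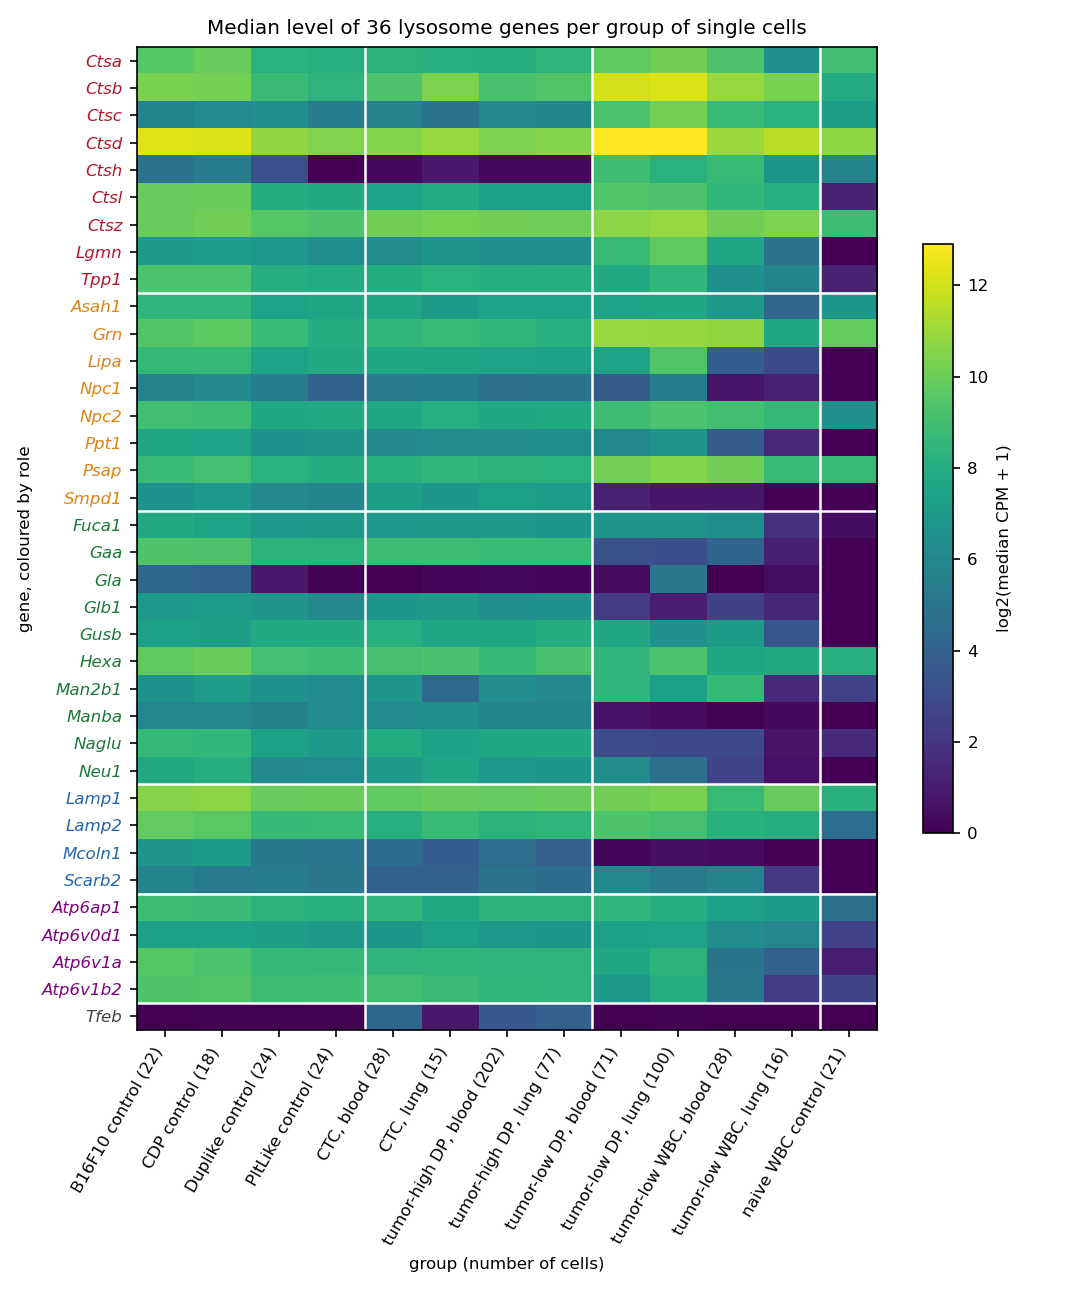
Median level of each of the 36 genes (rows, coloured by role) in groups of single cells (columns, number of cells in brackets), as log2(median CPM + 1). Proteases such as Ctsd and Ctsb are brightest in tumor-low DP cells, and Ctsh is dark in CTC and tumor-high DP cells, where its median is under 1 CPM.

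Single members split in different ways. Ctsd, the main aspartic protease of lysosomes, had a median of 7521 CPM in tumor-low DP cells of blood and 7723 CPM in those of lung, against 1334 and 1449 CPM in tumor-high DP cells. Ctsh, a cysteine protease with aminopeptidase activity, had medians of 471 and 302 CPM in tumor-low DP cells and of 0.237 and 0.248 CPM in tumor-high ones. Gaa, the acid glucosidase that degrades glycogen, went the other way, with medians of 8.28 and 7.69 CPM in tumor-low and 424 and 411 CPM in tumor-high DP cells. Medians of Lamp1 over cells lay closer, at 1115 and 1289 CPM in tumor-low and 892 and 962 CPM in tumor-high DP cells. Its sample sums, given below, differed more. Single cells overlapped widely, since Ctsd ranged from 6.16 to 37921 CPM in tumor-low DP cells of lung alone.

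Cells were then summed per sample, tissue and class and compared over samples with edgeR's quasi-likelihood test, with the sample as a block, and p-values were adjusted by Benjamini-Hochberg across every gene in the fit, with a threshold of 0.05. Values of sums are TMM-scaled CPM, averaged over the tissues of a sample. The tissues held can differ between the sides compared, and counts of samples do not match them. Scaling was set within each fit, so CPM of the same cells differ between fits. The summed level of tumor-low DP cells of replicate 4 was 43979 CPM against tumor-high DP and 38228 against WBC. Sums also weigh cells by their counts, unlike medians over cells. In sums, fewer cells of a type and less RNA per cell cannot be told apart. CPM are shares of the counts, and the amount of RNA per cell was not measured. The 3 sorted classes share samples with one another in these comparisons.

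Of 9 lysosomal proteases, 8 took a smaller share of the counts in CTC than in WBC. In CTC, 16 members were lower and 1 higher than in WBC, where 26.6% of the 12595 genes tested were called in either direction, 10.6% lower and 16% higher. Lower were 8 of 9 proteases, 4 of 8 lipid genes, 3 of 4 membrane genes and 1 of 10 glycosidases, and none of 4 V-ATPase genes was called in either direction. The median log2 difference was -1.05 over members and 0.74 over all genes. Ctsh had the largest difference. Its 5 CTC samples held 3.16, 6.98, 11.4, 9.85 and 22.8 CPM, and the 6 WBC samples 289.9, 2561, 1017, 891, 442 and 562 CPM. The classes did not overlap, and the log2 difference was -6.21 ± 0.69 (SE, adjusted p = 4.94e-07). Ctsc, which activates granule proteases of leukocytes, had 41.6 ± 8.43 CPM (SD, n = 5) in CTC and 1240 ± 442 (n = 6) in WBC (log2 difference -4.56 ± 0.71). Man2b1, a mannosidase, fell by 3.19 and Lgmn, a protease that cleaves after asparagine, by 3.07 on the log2 scale. Tfeb was the member that was higher, by 3.74 ± 1.17 on the log2 scale (adjusted p = 0.018), at 17.0 ± 5.32 CPM in CTC and 6.65 ± 11.8 in WBC, where replicate 4 alone held 30.2 CPM. Without replicate 5, 11 members were called. Sums of at least 5 cells left 5 members called, and lung cells alone left 2. The members' median log2 difference was -0.89 and -0.62 in these settings, against 0.81 and 1.63 over all genes. Shares of all genes called there are not given, so the counts alone do not set the members apart.

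In sums of all DP cells, tumor-high and tumor-low together, Ctsh lay below WBC and above CTC. The cell medians of Ctsh given above lay far apart between tumor-high and tumor-low DP. Against WBC, 5 members were called, where the share of all genes called was 20.5% (17.6% higher, 2.91% lower): Ctsh, Npc2, Man2b1 and Ctsl were lower and Tfeb higher. Ctsh ranged from 23.1 to 349 CPM over 9 DP samples, with a median of 140.5 CPM, and was below WBC in 6 of 6 samples that held both (log2 difference -3.07 ± 0.55, adjusted p = 0.000623). The ranges of the classes still overlapped. Npc2, which carries cholesterol inside the lysosome, had 473 ± 283 CPM in DP and 1197 ± 745 in WBC and was lower in 4 of 6 samples. The median log2 difference was -0.51 over members and 1.17 over all genes. The count changed with the libraries and the tissue used, with 1 call without replicate 5 and 3 without replicate 6. Blood cells only gave 17 calls and lung cells only 0. In lung, only replicates 2, 3 and 5 held WBC sums. Shares of all genes called are not given for these settings, so the counts alone do not set the members apart. The median over members was -0.61 in blood (12 of 36 above 0) and 0.78 in lung (27 of 36 above 0). The all-gene median was 1.66 in blood and 2.45 in lung, so the members' median lay below it in both tissues. Against CTC, 2 members were higher in DP, Ctsh by 3.14 ± 0.63 and Ctsc by 2.72 ± 0.76 on the log2 scale (adjusted p = 0.00234 and 0.0299), where 5.85% of all genes were called, all of them higher. Ctsc had 557 ± 514 CPM in DP, higher than in CTC in 5 of 5 samples. Psap, Grn and Lgmn were also higher in 5 of 5 samples but did not pass (adjusted p from 0.132 to 0.184). Without replicate 3 no member was called, and without replicate 2, 5 or 7 only 1 was.

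Within DP, 8 of the 9 proteases took a larger share of the counts in tumor-low than in tumor-high cells of the same samples. Of 36 members, 14 were higher in tumor-low DP and 1 was lower, where 16.7% of the 10895 genes tested were called (8.62% higher, 8.07% lower). The median log2 difference was 1.53 over members, with 30 of 36 above 0, and -0.28 over all genes. The summed level of the members was 47876 ± 22823 CPM in tumor-low (SD, n = 9) and 9774 ± 2693 in tumor-high DP sums (n = 8). It was higher in 8 of 8 samples with both, by 2.85 to 9.49 times (median 4.33). The count lay between 10 and 22 in all 19 alternative settings run, with 15 calls from blood cells only and 10 from lung cells only. The number of all genes called differed between settings too, so these counts alone do not set the members apart. The members' median log2 difference was 1.04 in blood cells only and 2.19 in lung cells only, against -1.01 and 0.39 over all genes. The macrophage markers given above moved with this difference, and so did depth. Their part in the result was not tested.

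**Figure D2:**
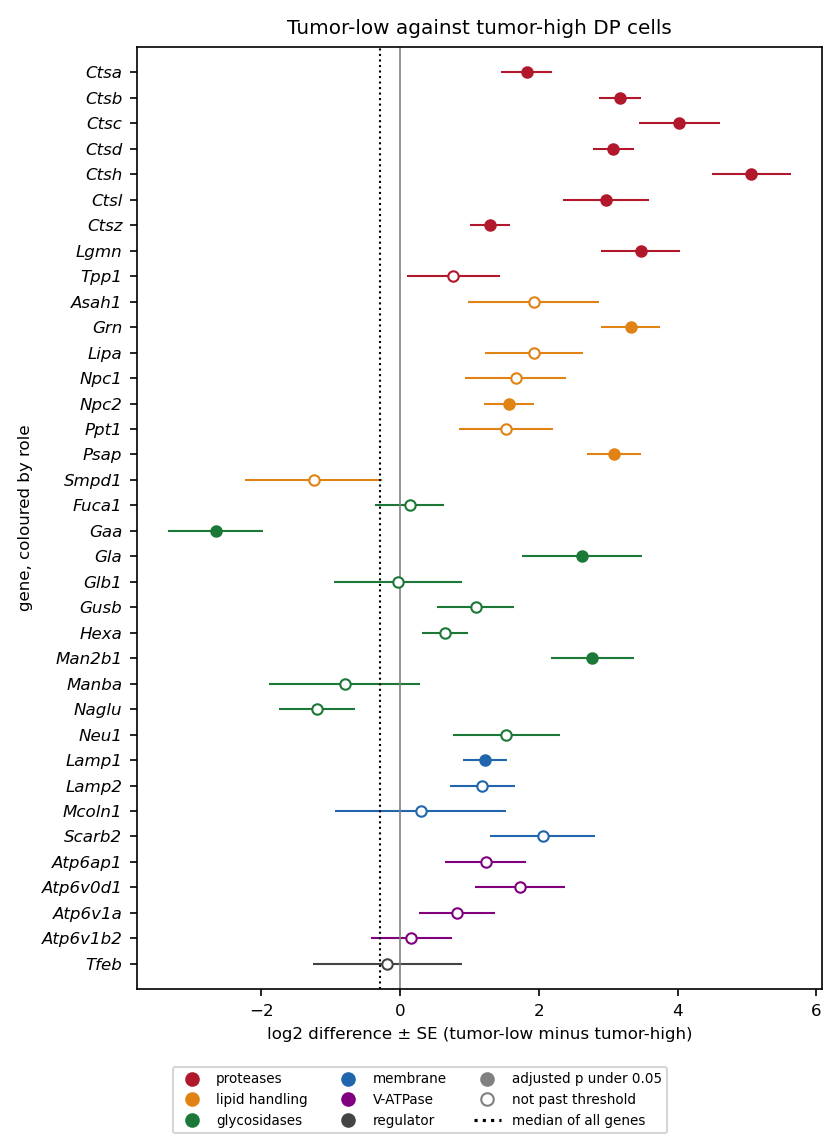
Log2 difference between tumor-low and tumor-high DP sums for each of the 36 genes (points, coloured by role, bars 1 SE, filled where the adjusted p is under 0.05, dotted line at the median of all genes tested, -0.28). The 14 filled points to the right of 0 hold 8 of the 9 proteases, and Gaa is the filled point to the left, at -2.66.

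Among the proteases, 8 of 9 were higher in tumor-low DP. Ctsd (chr7:142375911-142388038) had 4485, 12265 and 22364 CPM as the lowest, median and highest of 9 tumor-low sums, and 691, 1183 and 3027 CPM of 8 tumor-high sums. The groups did not overlap, and the log2 difference was 3.07 ± 0.30 (adjusted p = 2.12e-08). Ctsb (chr14:63122462-63145923), an abundant cysteine protease, had 3258, 8734 and 23355 CPM against 341, 762 and 1584 CPM. Replicate 8 held the highest and replicate 6 the lowest tumor-low value of Ctsd and of Ctsb, and even replicate 6 lay above every tumor-high value. The log2 difference of Ctsb was 3.17 ± 0.30. Of its exon bases, 12.8% overlap another gene, Fdft1, and the strand setting of the counting is not given in the sources used here.

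Ctsh (chr9:90054152-90076089) had the largest difference, 5.06 ± 0.57, with a lowest, median and highest value of 270.1, 677 and 1270 CPM against 9.57, 19.9 and 54.4 CPM. Ctsc was higher by 4.03 ± 0.59 and rose from 100.5 ± 113 to 1597 ± 987 CPM. Lgmn (chr12:102394084-102439813) had 786, 2005 and 6216 CPM in tumor-low sums and 39.0, 109 and 1025 CPM in tumor-high sums, where the last value was replicate 2. It was higher in 8 of 8 samples, by 3.47 ± 0.57, although the groups overlapped. Ctsl, a cysteine protease, was higher in 7 of 8 samples (2318 ± 2308 against 255 ± 206 CPM, log2 difference 2.97 ± 0.62). Ctsa, a serine carboxypeptidase that also protects other lysosomal enzymes, and Ctsz, a carboxypeptidase, were higher by 1.83 ± 0.37 and 1.30 ± 0.28. Tpp1, a tripeptidase, did not pass (0.77 ± 0.67, adjusted p = 0.514). Of the exon bases of Ctsa, 17.4% overlap Neurl2 or Pltp.

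Among genes of lipid handling, with Grn counted among them, 3 of 8 were higher. Psap, the precursor of the saposins that present lipids to lysosomal enzymes, had 1039, 2587 and 4913 CPM as the lowest, median and highest tumor-low values and 139, 289 and 343 CPM as the tumor-high ones. The groups did not overlap, and the lowest tumor-low sum was replicate 1 (log2 difference 3.09 ± 0.39, adjusted p = 1.64e-06). Grn, the progranulin gene, had 1406, 2561 and 7867 CPM against 136, 274 and 586 CPM, also without overlap (3.32 ± 0.42). Npc2 was higher by 1.57 ± 0.36, at 833 ± 209 against 299 ± 201 CPM. Lipa, the acid lipase, did not overlap between groups and was higher in 8 of 8 samples (712 ± 311 against 153 ± 65.5 CPM) but missed the threshold (1.93 ± 0.70, adjusted p = 0.0582). Npc1, Asah1, Smpd1 and Ppt1 did not pass.

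The glycosidases were divided. Gla, the alpha-galactosidase, was higher in tumor-low DP by 2.62 ± 0.86 (115 ± 77.3 against 17.7 ± 12.4 CPM, adjusted p = 0.035) and Man2b1 by 2.77 ± 0.60. Gaa (chr11:119267887-119285454) was lower in 8 of 8 samples: tumor-low sums had 1.69, 96.0 and 167 CPM as lowest, median and highest and tumor-high sums 157, 370.3 and 431 CPM. The groups overlapped only where the highest tumor-low value, replicate 4, passed the lowest tumor-high one, replicate 1. The log2 difference was -2.66 ± 0.68 (adjusted p = 0.00666). Naglu was lower in 7 of 8 samples without passing (-1.19 ± 0.54, adjusted p = 0.148), and Glb1, Gusb, Hexa, Neu1, Manba and Fuca1 did not pass.

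Of 4 membrane and channel genes, Lamp1 was higher by 1.22 ± 0.32 (2040 ± 1236 against 768 ± 193 CPM, adjusted p = 0.00681), with 9.31% of its exon bases shared with Grtp1. Lamp2 had 867 ± 344 against 373 ± 265 CPM and did not pass (adjusted p = 0.0857). Scarb2, a membrane protein of lysosomes, and the cation channel Mcoln1 did not pass. Of the V-ATPase genes none passed, with log2 differences from 0.16 for Atp6v1b2 to 1.73 for Atp6v0d1, all above 0. Tfeb did not pass (-0.18 ± 1.08, adjusted p = 0.946), at 22.0 ± 13.2 against 43.4 ± 78.5 CPM. Its highest tumor-high value, 237 CPM, was again replicate 2.

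The makeup of the lysosome messenger RNA differed between the 2 kinds of DP cell. Proteases made up 67.2% of the members' summed level in tumor-low and 45.4% in tumor-high sums. Glycosidases made up 5.09% and 17.7%, membrane genes 6.52% and 12.4%, V-ATPase genes 3.66% and 9.58%, and lipid genes 17.5% and 14.5%. Grn alone, counted with the lipid genes, made up 6.77% and 3.19%. Scaled per kilobase of exon, Ctsd led tumor-low sums at 5194 CPM per kb, ahead of Ctsz at 1662, Ctsb at 1484 and Psap at 979. In tumor-high sums Ctsz (653) and Ctsd (577) led, followed by Lamp1 (287) and Hexa (229), and then Ctsb (143). Tfeb and Mcoln1 were the lowest in tumor-low sums, at 3.89 and 4.96 CPM per kb, and Npc1 and Mcoln1 in tumor-high sums. Of the promoters shown above, 3 of 6 with an extended E-box (Ctsa, Ctsd and Gla) belonged to members called higher. Of 12 members with any E-box, 6 were higher and 1, Gaa, lower, and of 19 with no E-box 6 were higher. Ctsb and Ctsh, also called higher, had no window matched. These shares are not given over all genes, and a link to the E-box was not tested.

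Tumor-high DP cells and CTC, both of them tumor-high by the score, were compared next. No member was called and no gene of 11890 was (0%) by edgeR. At an unadjusted p under 0.05 there were 0 members and 477 genes, and DESeq2 called 0 members and 581 genes. The members' median log2 difference was 0.01, against -0.13 over all genes. The member with the smallest p was Ctsh, at 27.1 ± 15.8 CPM in DP (n = 8) and 13.2 ± 9.41 in CTC (n = 5), a log2 difference of 1.17 ± 1.02 (adjusted p = 1). Asah1, the acid ceramidase, had 141 ± 55.0 and 170 ± 31.7 CPM. All 36 members overlapped between the classes. In no comparison was overlap counted over all genes.

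Between tumor-low DP cells and WBC no member was called by edgeR either, where 0 of 9809 genes (0%) were called. At an unadjusted p under 0.05 there were 834 genes and 1 member, Tfeb, and DESeq2 called Glb1, Manba and Tfeb. Tfeb had 18.3 ± 11.3 CPM in tumor-low DP and 5.43 ± 9.67 in WBC and was higher in 6 of 6 samples (log2 difference 4.41 ± 1.67, adjusted p = 0.494). Glb1, the beta-galactosidase, was lower in 6 of 6 (84.7 ± 67.2 against 173 ± 98.7 CPM). The summed level was 38981 ± 17823 CPM in DP and 25104 ± 10382 in WBC, higher in DP in 5 of 6 samples. The exception was replicate 6, with 17972 CPM in DP and 43820 in WBC, both from blood alone. In replicates 1, 4 and 5 the classes did not hold the same tissues, so class and tissue are mixed there. In blood cells alone the members' median log2 difference was -0.06 (17 of 36 above 0), and in lung cells alone 0.78 (31 of 36). The all-gene medians were 0.36 and 1.89.

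Lung and blood were compared within each kind of cell, with DP, CTC and WBC cells together. In tumor-high cells no member was called, where edgeR called 0.157% of 12139 genes, all higher in lung. At an unadjusted p under 0.05 there were 0 members and 341 genes, and DESeq2 called 0 members and 1086 genes. The members' summed level was 12864 ± 2305 CPM in lung (n = 6) and 9307 ± 1187 in blood (n = 7). It was higher in lung in 5 of 5 samples, by 1.09 to 1.71 times (median 1.33). Of the 36 members, 12 had a log2 difference above 0. Single members spread widely in lung. Ctsl had 111, 168 and 277 CPM as lowest, median and highest in blood and 6.51, 238 and 1750 CPM in lung, where replicate 1, with 2 cells, gave the highest value. Ctsb was the member without overlap, from 425 to 857 CPM in blood and from 880 to 1808 in lung (log2 difference 0.93 ± 0.59, adjusted p = 0.834). Over all genes the median log2 difference was -1.65 here, against -0.22 over members, and it came to -0.11 and 0.25 when sums of fewer than 5 cells, which are lung replicates 1 and 2, were left out. Without them no gene was called, and Ctsb was at 0.92 ± 0.24 (unadjusted p = 0.010, adjusted p = 0.95).

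In tumor-low cells, 3 members were higher in lung than in blood and none lower, where 0.556% of 10254 genes were called (0.322% higher, 0.234% lower). The median log2 difference was 0.99 over members, with 32 of 36 above 0, and 0.04 over all genes. At an unadjusted p under 0.05, 19 members were higher and none lower, and of all 10254 genes 492 were higher and 380 lower. The summed level was 51551 ± 20637 CPM in lung (n = 7) and 20473 ± 5967 in blood (n = 8), higher in lung in 6 of 6 samples by 1.77 to 4.26 times. Sorted class was not matched in these pairs. Blood of replicates 4 and 5 held only WBC (2 and 4 cells). Lung held 15 DP cells in replicate 4, and 20 DP and 7 WBC cells in replicate 5. In these samples tissue and class cannot be told apart. Platelet markers moved with the tissue too: the summed CPM of 5 such genes had a median of 556 in tumor-low DP and 264 in tumor-low WBC cells of blood, against 4.70 and 5.73 in those of lung, where Gp9 and Gp1bb had no count. Their part in the result was not tested.

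Lipa (chr19:34492318-34527474) had 39.4, 140 and 347 CPM as lowest, median and highest in blood and 489, 897 and 1267 CPM in lung. Every lung sum was above every blood sum, and the log2 difference was 3.04 ± 0.49 (adjusted p = 0.0277). Ctsd had 1722, 4343 and 7182 CPM in blood and 7491, 11598 and 20214 CPM in lung, again without overlap (1.72 ± 0.32, adjusted p = 0.0448). Lgmn had 63.9, 373 and 1546 CPM in blood and 1145, 1770 and 5543 CPM in lung. The groups overlapped through replicate 6 of blood, and Lgmn was higher in lung in 6 of 6 samples with both (2.53 ± 0.42, adjusted p = 0.0277). Ctsb (9948 ± 5783 against 2881 ± 999 CPM) and Ctsl (2376 ± 2185 against 687 ± 278 CPM) were higher in 6 of 6 samples and missed the threshold (adjusted p = 0.0624 and 0.0885). Psap had 2861 ± 1162 CPM in lung and 1133 ± 334 in blood (adjusted p = 0.114). Grn, Lamp1 and Lamp2 had log2 differences of 0.78 ± 0.34, 1.09 ± 0.37 and 0.64 ± 0.37, with adjusted p from 0.34 to 0.732. Tfeb had 20.3 ± 21.1 CPM in lung and 11.3 ± 8.90 in blood (adjusted p = 0.999).

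The 3 calls did not hold when any of several samples was left out. Without replicate 1, 2, 3, 4 or 5 no member was called, and without replicate 7 only 1 was. In these fits the members' median log2 difference ran from 0.87 to 1.12, with 28 to 33 of 36 above 0. The all-gene median ran from -0.17 to 0.19. At an unadjusted p under 0.05 by edgeR there were 13 to 19 members. None was called with sums of at least 5 cells or in DP cells alone, where the log2 differences of Lipa, Lgmn and Ctsd were 2.79 ± 0.84, 2.04 ± 0.76 and 1.12 ± 0.51. With cells near the score limit left out 5 members were called, and Ctsd was at 2.15 ± 0.27 and Lipa at 3.51 ± 0.53. Shares of all genes called in these alternative fits are not given here.

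**Figure D3:**
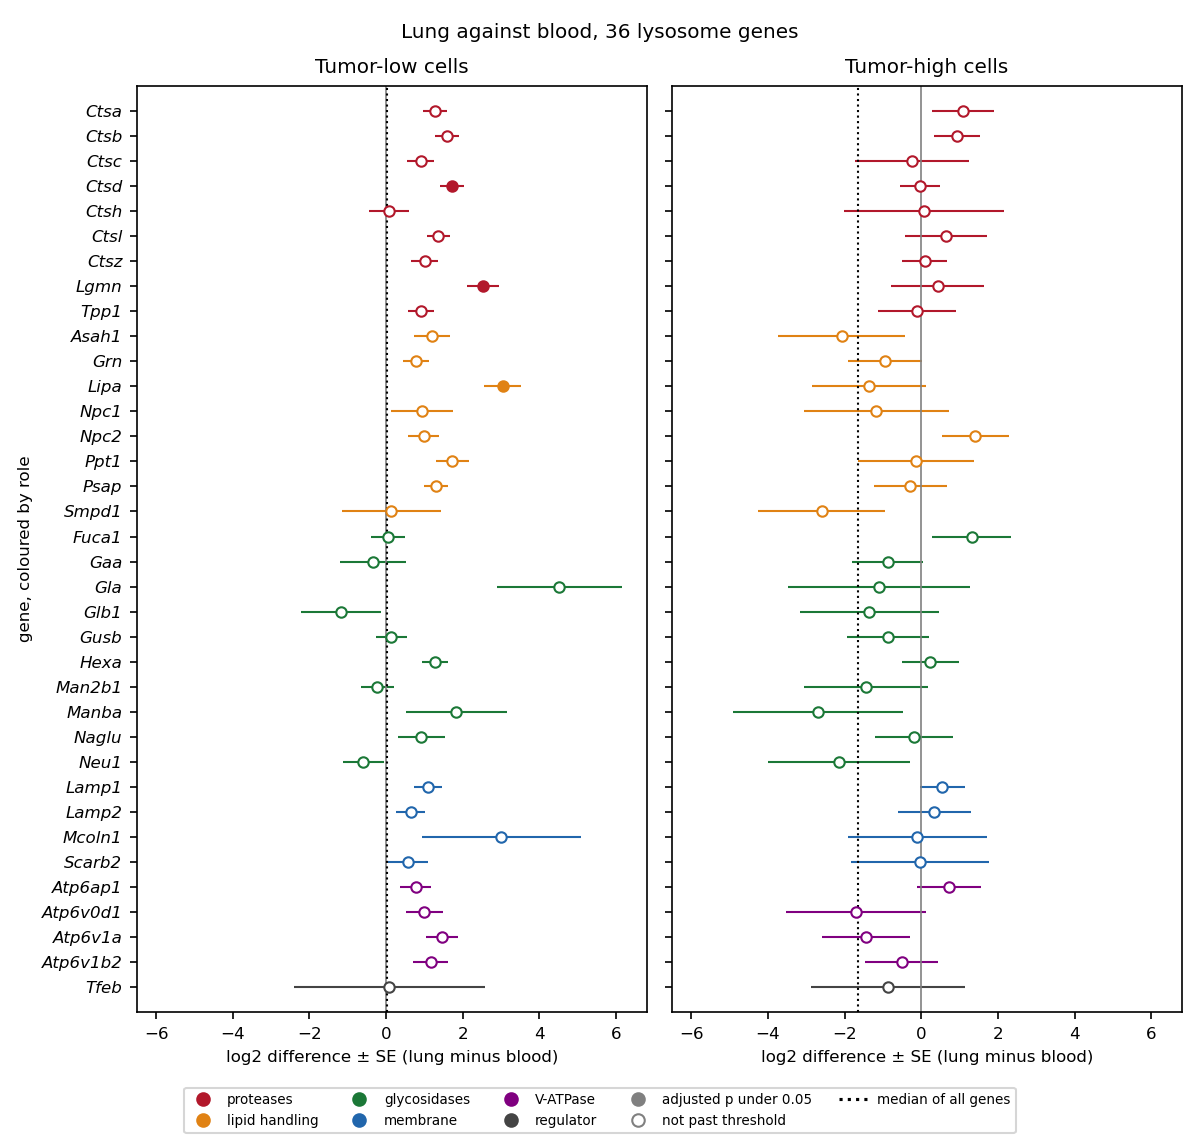
Log2 difference between lung and blood for each of the 36 genes in tumor-low cells (left) and tumor-high cells (right), with bars of 1 SE, filled points where the adjusted p is under 0.05 and a dotted line at the median of all genes tested. In tumor-low cells 32 of 36 points lie above 0 and Lipa, Lgmn and Ctsd are filled; in tumor-high cells none is filled and the dotted line lies at -1.65.

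Alveolar macrophages are the resident phagocytes of lung air spaces. Their 8 marker genes had a median sum of 4654 CPM in tumor-low DP cells of lung (0 to 53565) and 3.57 CPM in those of blood (0 to 18464), where Krt79 had no count. With a mean log2(CPM + 1) of the 8 of at least 3 as the limit, 54 of 116 tumor-low lung cells and 3 of 99 tumor-low blood cells carried the markers, and 29 of the 54 came from replicate 3. Among lung cells, those with the markers had a median of 836 CPM of Lipa and those without 250.1 CPM. Lgmn and Ctsb stood the other way, with 406 and 3041 CPM in cells with the markers and 1627 and 7067 CPM in cells without. Ctsd had 8356 and 5705 CPM. With these cells left out, Lgmn (3.05 ± 0.47) and Ctsb (2.07 ± 0.36) were called and Lipa (2.67 ± 0.65, adjusted p = 0.149) and Ctsd (1.41 ± 0.44, adjusted p = 0.312) were not. In cells with macrophage markers alone (mean of at least 4 over the 10 genes), Lipa was called (3.23 ± 0.69) and no other member.

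The lung difference of tumor-low cells was set against that of tumor-high cells in 1 fit. No member and none of 12835 genes (0%) was called by edgeR. At an unadjusted p under 0.05 there were 575 genes, and 9 members had the larger lung difference in tumor-low cells. DESeq2 called Gla and Lipa. The smallest p was that of Ctsd, at 1.99 ± 0.47 on the log2 scale (unadjusted p = 0.000343, adjusted p = 0.401), and Lipa was at 4.65 ± 1.54. The members' median was 1.29 and that of all genes 1.52. This order turned with sums of at least 5 cells, which gave 0.86 over members and -0.24 over all genes, and with cells near the score limit left out (1.17 and -0.03) or no replicate block (0.90 and 0.22).

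**Figure D4:**
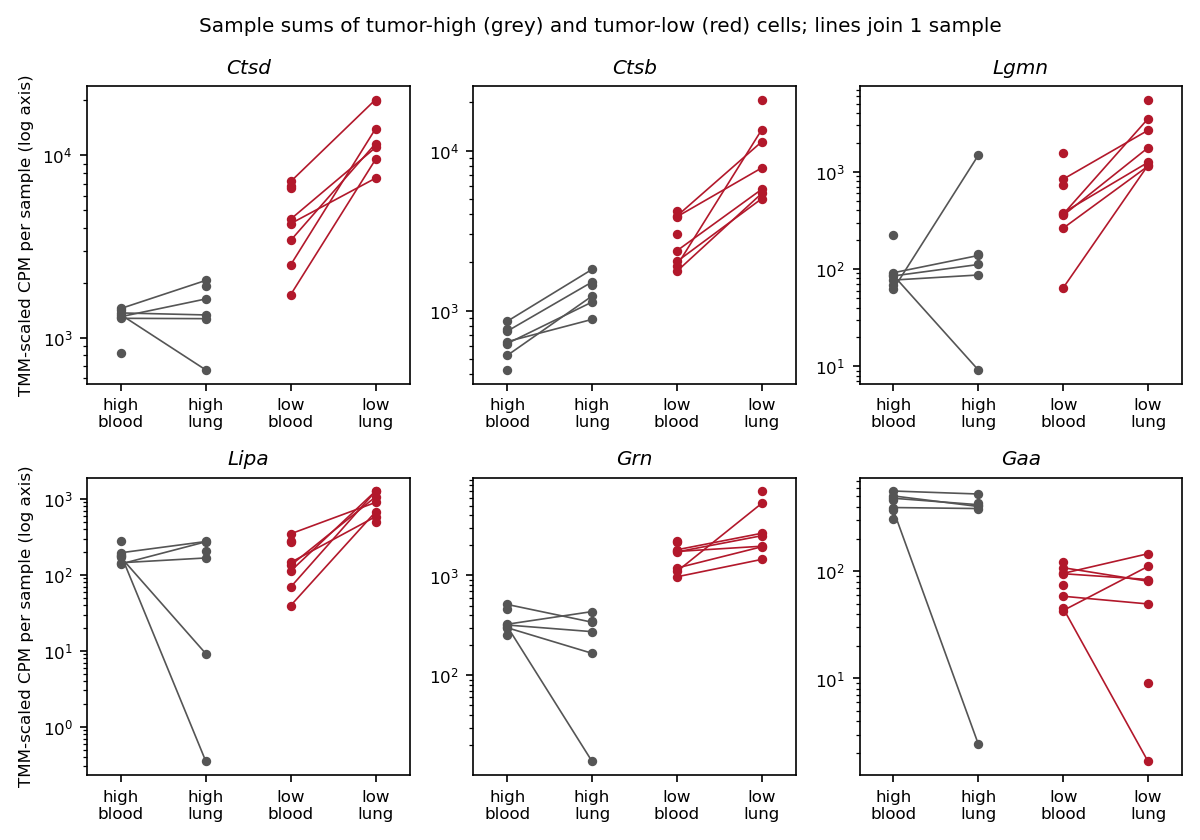
TMM-scaled CPM of Ctsd, Ctsb, Lgmn, Lipa, Grn and Gaa in sums of tumor-high (grey) and tumor-low (red) cells of blood and lung, on a log axis, with a line joining the tissues of 1 sample. Red lines of Ctsd, Ctsb, Lgmn, Lipa and Grn go up from blood to lung in 6 of 6 samples, while those of Gaa go up in 2 of 6.

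The controls have 1 sample each and were compared by pooled CPM, with no test and no replicate check. The pools of CTC and of WBC from tumor-bearing samples held cells of blood and lung together. A difference of 4 times or more was counted, and brackets give exact Poisson intervals of 95%, which cover counting error only since copies made by PCR were not marked. In cultured B16F10, 30 of 36 members lay above CTC, with a median ratio of 1.60, and 26 lay above the whole range of the 5 CTC samples. These counts were not made over all genes. None passed 4 times upward. Ctsl came nearest, at 986 CPM (983 to 990) against 260.2 CPM (259 to 261) in CTC. Ctsd had 4855 CPM against 1685 and Lamp2 861 against 361. Tfeb was the member that passed downward, at 4.15 CPM (3.93 to 4.37) against 21.0 CPM (20.8 to 21.3), below all 5 CTC samples, which held 12.7 to 35.4 CPM.

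CDP cells resembled B16F10 in these genes: no member differed by 4 times between them, and ratios ran from 0.854 to 1.35. Against CTC, Ctsl was higher in CDP by 4.43 times and Tfeb was at 0.177 of CTC. Duplike and PltLike cells lay closer to CTC, with no member past 4 times and median ratios of 0.978 and 0.845. Ctsb was lower in both, at 484 and 371 CPM against 1156 CPM in pooled CTC. The 5 CTC samples held 548 to 1389 CPM of Ctsb, with a median of 861. PltLike differed by 4 times from CDP in Ctsh (5.66 against 43.0 CPM), Ctsl (225 against 1154 CPM) and Mcoln1 (31.2 against 126 CPM), all lower in PltLike, and from B16F10 in Ctsh and Ctsl. Duplike had less Ctsl than CDP, at 269 CPM. Naive WBC had Ctsl at 43.3 CPM and Gaa at 13.2 CPM, against 950.0 and 57.4 CPM in WBC of tumor-bearing samples. Tfeb stood at 68.0 against 4.87 CPM, and 7 of 21 naive WBC held counts of it.

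**Figure D5:**
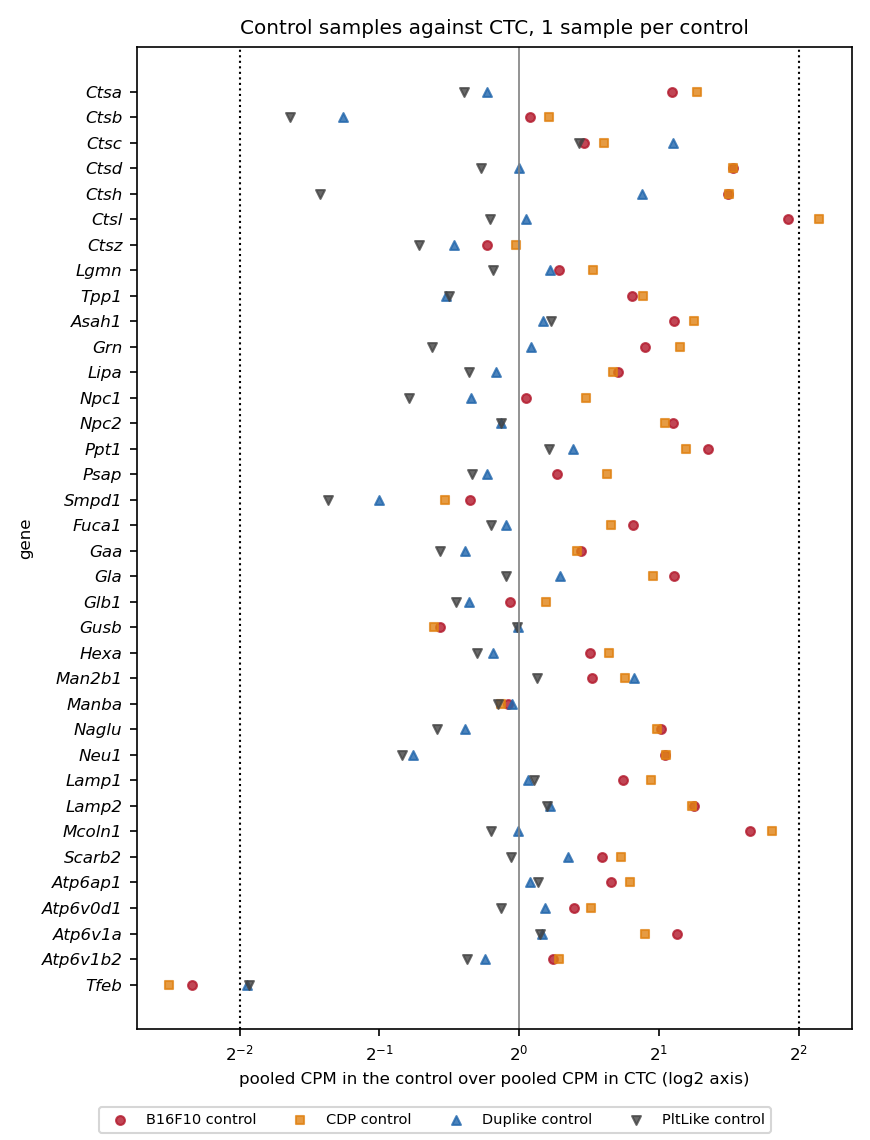
Ratio of pooled CPM in each control to pooled CPM in CTC for the 36 genes, on a log2 axis, with dotted lines at 0.25 and 4. B16F10 and CDP points lie mostly to the right of 1 (30 and 31 of 36) and PltLike points mostly to the left (28 of 36), and Tfeb lies far left in all 4.

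Across cells, Ctsd was used as the reference for likeness, by Spearman's correlation of CPM, as a description over cells that share libraries and depth. In 215 tumor-low cells the correlation with the other members had a median of 0.347 and ran from -0.005 to 0.600, and Grn, Ctsb and Psap were the most like. In 324 tumor-high cells the median was 0.215, from -0.021 to 0.5264, and Smpd1, Ctsb and Grn were the most like.

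Other lysosome genes, 77 in 4 lists of hydrolases, membrane proteins, V-ATPase subunits and genes of sorting and regulation, were read in the same fits. In tumor-low against tumor-high DP, 13 of 75 tested were higher and 1 lower: 7 higher and 1 lower of 26 hydrolases, 3 higher of 18 membrane genes, 2 of 14 V-ATPase genes and 1 of 17 genes of sorting and regulation. Among the examples, the largest log2 differences were those of Tfec, a transcription factor related to Tfeb (11.29 ± 2.40), and Slc11a1, a metal transporter of phagocytes (8.51 ± 0.99). Tfec was low in CPM, at 39.2 ± 42.0 against 5.22 ± 14.7. Ctss, a cysteine protease of antigen-presenting cells, had 3981 ± 2383 CPM against 23.1 ± 16 (log2 difference 7.48 ± 0.56). Laptm5, a lysosomal membrane protein of blood cells, had 2262 ± 559 against 13.7 ± 10.6 CPM, and Cd68, a macrophage glycoprotein related to Lamp1, 2374 ± 994 against 36.5 ± 53.2 CPM. In lung against blood of tumor-low cells, 3 of 75 were higher and none lower. They were Cd63, a membrane protein of late endosomes (1237 ± 319 against 165 ± 103 CPM), Ctsk, a collagen-cleaving protease (1434 ± 1300 against 29.3 ± 76.6 CPM), and the acid phosphatase Acp5 (583 ± 279 against 131 ± 90.7 CPM). Their adjusted p ran from 0.0277 to 0.0306. In tumor-high cells none of 74 was called between the tissues.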

How the data were processed

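Raw counts per gene and cell, deposited by the authors as whole numbers with no normalization, were used. Per the submitters' processing notes the tools were Trim Galore, HISAT2, SAMtools and featureCounts on mm10, with BWA and Picard also listed; tool versions and the strand setting: not given in the sources used here. Since 56.7% of nonzero counts were even, 1 count need not be 1 fragment, and intervals cover counting error only. No doublet caller was run. No cell barcode is shared between samples and no pair of cells had identical counts. Cells held from 20525 to 104170496 counts.

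Cells of a class were summed within a sample and tissue, from 2 cells up. Tests used edgeR 4.0.16 (quasi-likelihood, TMM, filterByExpr) and limma 3.58.1 under R 4.3.3. Each fit had the sample as replicate block and a term for tissue, and Benjamini-Hochberg adjustment ran across every gene fitted. Classes and tissues of 1 sample carry the same sample label, which is why they were paired. Same-sample correlations of deviations had medians of 0.03 for tumor-high (5 pairs) and -0.008 for tumor-low cells (6 pairs), and none passed 0.1. The fits were tested on simulated data. DESeq2 1.42.0, other scalings, filters, subsets of cells and each sample left out were alternatives. Python 3.11.15, NumPy 2.4.6, pandas 2.3.3, SciPy 1.17.1 and Matplotlib 3.10.9 were used.

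The members and lists were chosen with earlier results of these data known. Genes were named by rule: per comparison the 5 largest called differences in each direction (the 5 smallest p where fewer than 5 passed), Ctsd, Ctsb, Ctsl, Lamp1, Lamp2, Psap, Grn, Lgmn and Tfeb, and up to 4 examples per list of other lysosome genes. Further members are named with their values because a count or a role group needed them, after their values were seen. Gene coordinates and exon lengths come from GENCODE vM21 (GRCm38) and promoters from RefSeq. DNA data of the same cells were not analysed here. Fyb and Trac of the marker lists had no row under these symbols.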

Additional observations from a re-analysis of the deposited data

Results flagged for a closer look

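In 8 of 44 groups of samples checked, over 10 members and their sum, 1 sample stood apart from the others by Dixon's 95% limit, where chance gives about 1 in 20. In tumor-high cells of lung, replicate 1 (2 cells) had the highest Ctsl, at 1750 CPM with the nearest sample at 375, and the highest Lamp1, at 2345 CPM with the nearest at 1171. Replicate 2 of lung (3 tumor-high cells) had the highest Lgmn, at 1482 CPM with the nearest at 144, and the highest Tfeb, at 340.4 CPM with the nearest at 30.6. In tumor-high cells of blood, replicate 6 had the lowest Ctsd, at 825 CPM with the nearest at 1276. Replicate 9 of blood had the highest Lgmn, at 226 CPM with the nearest at 91.6, and the highest Lipa, at 276 CPM with the nearest at 195. In tumor-low cells of lung, replicate 8 had the highest Ctsl, at 7045 CPM with the nearest at 3116.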

How the results depend on the processing

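Over 9 counts of members called, 132 of 169 alternative values lay within 1.5 times the reported count, all 19 for tumor-low against tumor-high DP among them. Of 42 called results of a member in a comparison, 617 of 756 alternative values kept direction and call, 138 kept direction only, and 1 turned, Lamp2 in CTC against WBC at 0.036 in lung cells alone. DESeq2 called 12 members for DP against WBC, 3 for tumor-low DP against WBC, 6 for lung against blood in tumor-low cells and 2 for the difference between the kinds of cell. Over all genes it called 5269 for DP against WBC (edgeR 2586), 1467 for DP against CTC (737), 5818 for CTC against WBC (3347), 4263 for tumor-low against tumor-high DP (1818), 1803 for tumor-low DP against WBC (0), 1624 for lung against blood in tumor-low cells (57) and 908 for the difference (0). DESeq2 size factors in edgeR gave 9 for DP against WBC, and moved the all-gene median of tumor-low against tumor-high DP from -0.28 to -0.50 and that of lung against blood in tumor-high cells from -1.65 to -1.34, there with 18 in place of 12 members above 0. Without the filter on low counts, 7 members were called for lung against blood in tumor-low cells and 2 for the difference. With no replicate block, 10 were called for DP against WBC and 9 for lung against blood in tumor-low cells, against 3, 18 and 19 for DP against CTC, CTC against WBC and tumor-low against tumor-high DP and 0 in the other 4 comparisons. Sums of at least 5 cells gave 1 for DP against WBC, 0 for DP against CTC, 5 for CTC against WBC and 0 for lung against blood in tumor-low cells. Each cell scaled to the same total, chosen after seeing the data, gave 7 for DP against CTC and 1 for lung against blood in tumor-low cells. Blood cells alone gave 17 for DP against WBC and 0 for DP against CTC, and lung cells alone 0, 1 and, for CTC against WBC, 2. For lung against blood in tumor-low cells, leaving out cells near the score limit gave 5, DP cells alone 0, samples with C in their labels 1 and macrophage-marker cells 1. Leaving out 1 sample gave 1 to 7 members for DP against WBC, 0 to 2 for DP against CTC, 11 to 19 for CTC against WBC, 13 to 18 for tumor-low against tumor-high DP and 0 to 3 for lung against blood in tumor-low cells. It gave 0 in the other 4 comparisons. Where fewer samples, cells or genes entered, the fit was smaller by construction, and for the other settings the cause was not tested. For most settings the share of all genes called is not given, so counts of members alone do not set the members apart. Depth was lowest in naive WBC. Leaving out sums of fewer than 5 cells took the genes called for lung against blood in tumor-high cells from 19 to 0, with 0 members called in both.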
